A study of Mus musculus with 2 samples.

Results

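The acute phase proteins described here are 10 secreted proteins of the inflammatory response, most of them made mainly by hepatocytes. They are the serum amyloid A proteins of Saa1, Saa2, Saa3 and Saa4, haptoglobin (Hp), hemopexin (Hpx), the orosomucoids of Orm1 and Orm2, lipocalin 2 (Lcn2) and serum amyloid P component (Apcs). The genes were taken by name from the spots of the array design that are not controls, with every probe of each gene read, and they are 10 of 30153 genes. The rule reads names only, although the genes were proposed with earlier results of these data known. Each of the 10 genes has 1 probe of 60 bases in 1 spot, and each gave a signal well above background, and not saturated, on both arrays.
RNA of 2 samples was compared, 1 array of MHs (mature hepatocytes) from healthy liver and 1 array of Sox9+EpCAM- hepatocytes from the liver of DDC-fed Sox9-EGFP mice. DDC is a compound that, given in the diet, causes chronic bile duct injury with a ductular reaction. The methods of the study name Sox9-EGFP mice, in which GFP marks cells that express Sox9, as the source of both the healthy and the DDC-injured livers, so the reporter may be shared by both groups. MHs were purified from collagenase-digested liver by low-speed spins and a Percoll gradient, whereas FACS was used to sort the other cells as GFP+EpCAM-, so the way of isolation differs with the diet and the cell type and cannot be told apart from them. The age of the mice, the number of mice behind each array and the length of DDC feeding for the arrays are not given in the sources used here. Male is the sex that the labels state for either sample, but both probes of Xist gave signal above background in MHs and neither in the sorted cells, and of 5 probes for 4 genes of the Y chromosome 0 gave such signal in MHs and 4 in the sorted cells. The signal of the MH array thus goes against its label, and the part of sex in the values below was not tested.
The fluorescence intensity of each spot was set relative to the 75th percentile of its array, which was 741 for MHs and 1110 for the sorted cells, and taken to log2. A log2 difference is the Sox9+EpCAM- value minus the MH value, and a difference of at least 4-fold, which is 2 on the log2 scale, was taken as the rule of size. Intensities are printed as deposited, before scaling, so a gene can read higher on an array and still be lower relative to it. With 1 array per group no SD and no test can be had, so precision is limited by how few arrays there are. The error model of the scanner software gives each member a standard error of 0.20 on the log2 scale, which covers the measurement of the spots only and not the variation between mice. It comes from a nearly constant error of 10% of the intensity of each member's spot. It does not come from repeated spots, since each member has 1 spot. Over 3274 other genes with exactly 2 probes above background on both arrays, the differences of the 2 probes lay 0.66 apart in the median and 2.12 apart at the 90th percentile, so a value from 1 probe carries more doubt than its standard error shows.
In the acute phase response, hepatocytes change their output of plasma proteins after injury or infection. Interleukin 6 and related cytokines act through gp130, JAK kinases and STAT3, interleukin 1 and tumour necrosis factor act through NF-kB, and C/EBP factors bind the promoters of many of these genes. Proteins whose plasma level goes up are called positive acute phase proteins, and those that go down, such as albumin, negative ones.

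Lcn2 and Saa4 moved beyond 4-fold, in opposite directions, and the other 8 genes differed by less than 4-fold. Lcn2 rose 8.97-fold in Sox9+EpCAM- hepatocytes and Saa4 fell 6.60-fold. Of the other 8, Saa3 and Hp were higher and Saa1, Saa2, Hpx, Orm1, Orm2 and Apcs were lower, with Hpx changing sign under another scaling. Thus 1 of 10 members was at least 4-fold higher, beside 5.98% of the 21877 genes with a difference, and 1 of 10 was at least 4-fold lower, beside 5.96%. At a limit of 2-fold, 5 members were lower, beside 17.9% of all genes with a difference, 1 was higher, beside 15.2%, and 4 lay within it. That count depends on the scaling, with 3 lower and 2 higher (Lcn2 and Hp) after quantile normalization, 4 lower after scaling to Gapdh or with normexp, and 6 lower with the authors' table. The median log2 difference was -0.98 over the 10 members and -0.12 over all genes with a difference. With quantile normalization the median of the members was -0.52, and with the authors' deposited scaling it was -1.16.

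**Figure D1:**
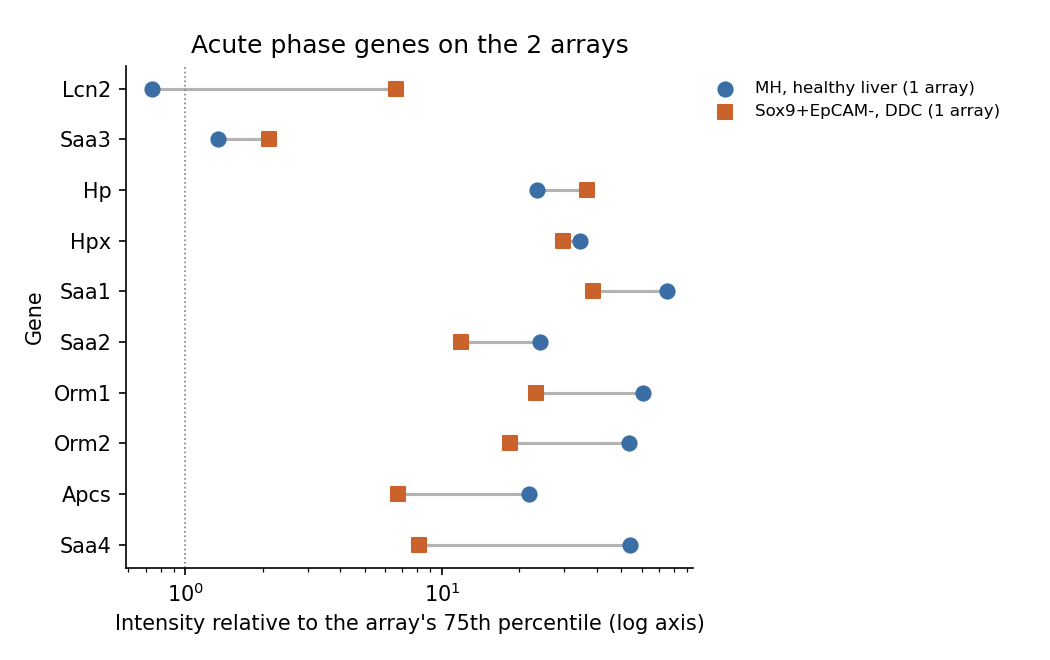
Intensity of the 10 acute phase genes on the MH array (circles) and the Sox9+EpCAM- array (squares), each relative to the 75th percentile of its own array (dotted line at 1) on a log axis, with 1 array per group and no error bar. Lcn2 has its square far to the right of its circle, Saa4 far to the left, and the levels of different genes are not compared because each comes from its own probe.

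**Figure D2:**
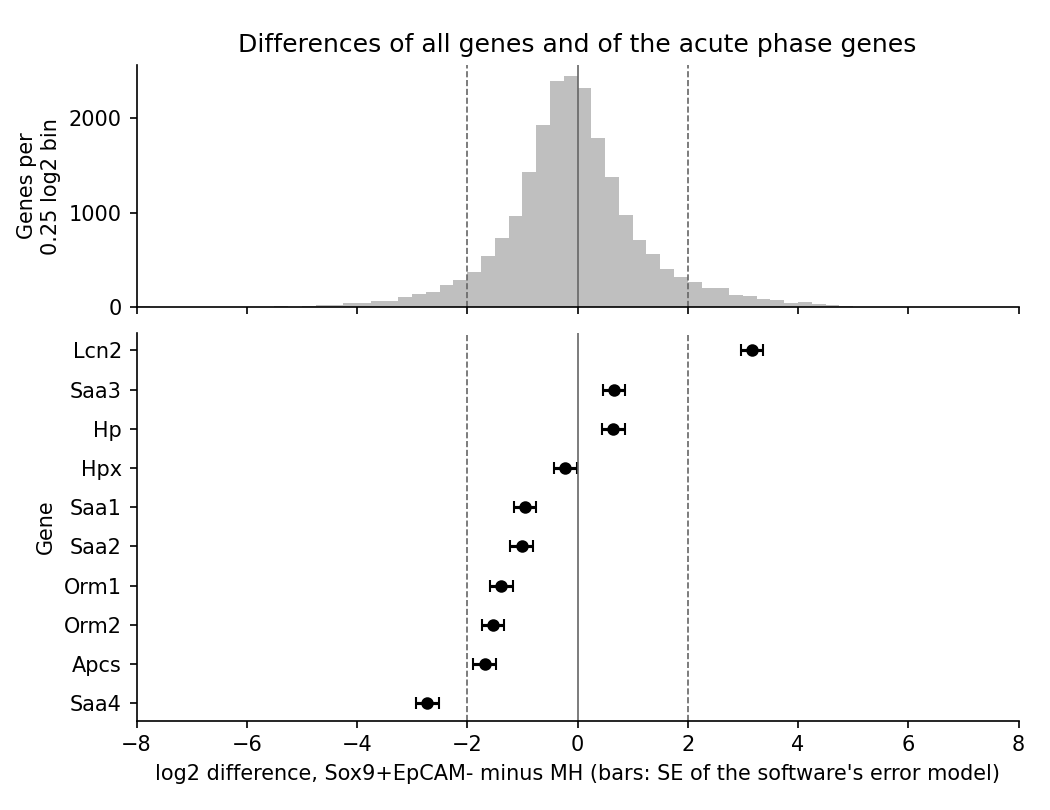
Upper panel, number of genes per bin of 0.25 on the log2 scale for the 21877 genes with a difference. Lower panel, log2 difference of each acute phase gene with the standard error of the software's error model, which is 0.20 for each, and dashed lines at the rule of size of 2 on the log2 scale. Only Lcn2 (3.16) and Saa4 (-2.72) lie outside the dashed lines.

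Serum amyloid A proteins are small apolipoproteins of high-density lipoprotein. Saa1 and Saa2 encode the major acute phase forms of the liver, Saa3 a form that is also made outside the liver, for example in macrophages and adipocytes, and Saa4 the constitutive form. No gene annotation of mm9 was used here, so exons and introns under the probes are not given. The probes of the family lie on chromosome 7 (mm9) in the order Saa3, Saa4, Saa1 and Saa2, within 39.3 kb.
The promoters of the 4 genes are shown because the genes are neighbours of 1 family that did not move together. They are the 250 bases before the annotated start in RefSeq (GRCm38.p6, a later build than the mm9 of the probes), read 5′ to 3′ on the strand of the gene. Capitals mark the match to the C/EBP motif TTNNGNAA, searched on both strands, with a place that matches on both counted once.
Saa1 (chr7:46742981-46743230, minus strand): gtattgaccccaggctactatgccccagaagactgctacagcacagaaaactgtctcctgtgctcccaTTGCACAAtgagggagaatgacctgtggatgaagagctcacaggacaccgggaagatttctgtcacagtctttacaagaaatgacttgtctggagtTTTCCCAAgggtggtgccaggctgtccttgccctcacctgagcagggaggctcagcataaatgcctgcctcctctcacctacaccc
Saa2 (chr7:46751583-46751832, plus strand): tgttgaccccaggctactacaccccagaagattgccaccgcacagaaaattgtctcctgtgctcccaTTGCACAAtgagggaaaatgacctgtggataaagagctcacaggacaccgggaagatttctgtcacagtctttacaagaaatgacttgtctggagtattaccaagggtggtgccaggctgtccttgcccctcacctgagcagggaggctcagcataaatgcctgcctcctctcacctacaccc
Saa3 (chr7:46715677-46715926, minus strand): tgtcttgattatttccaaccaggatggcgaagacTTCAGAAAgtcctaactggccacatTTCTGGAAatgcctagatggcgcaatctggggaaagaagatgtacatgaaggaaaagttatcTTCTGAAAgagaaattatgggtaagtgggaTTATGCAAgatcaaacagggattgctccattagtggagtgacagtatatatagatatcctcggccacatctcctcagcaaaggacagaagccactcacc
Saa4 (chr7:46732604-46732853, minus strand): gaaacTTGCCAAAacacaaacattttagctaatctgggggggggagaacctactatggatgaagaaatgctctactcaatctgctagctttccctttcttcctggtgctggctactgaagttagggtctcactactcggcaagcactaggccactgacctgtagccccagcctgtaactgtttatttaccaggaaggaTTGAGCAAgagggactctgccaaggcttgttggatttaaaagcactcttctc
Aligned end to end, the promoters of Saa1 and Saa2 have 238 identical bases, 11 mismatches and 2 gap positions (94.8% identity). The identity of Saa1 with Saa3 is 48.9% and with Saa4 42.6%. Counted from the annotated start, Saa1 has matches that begin at -182 and -86, Saa2 has 1 at -183, Saa3 has 4 between -216 and -99, and Saa4 has 1 at -245 and 1 at -52. The motif is short and loose, and 36.8% of the 32851 promoters in the table hold it, so a match is a description and not a binding site.
The probe of Saa1 (chromosome 7, 53996070 to 53996129, mm9) had a fluorescence intensity that read 55900 in MHs and 43200 in Sox9+EpCAM- hepatocytes. The log2 difference was -0.95, which is 1.94-fold lower in Sox9+EpCAM- hepatocytes. The probe of Saa2 (54009622 to 54009681) had intensities of 17800 and 13200, a log2 difference of -1.01 and 2.02-fold lower. Saa1 and Saa2, with their near-identical promoters, differed from each other in this value by 0.06 ± 0.29 (standard error of the error model), so they cannot be separated at this precision. The RefSeq gene table lists the names Saa1 and Saa2 as synonyms of each other, and a probe of one could also bind the transcript of the other. Both values are uncertain to that extent. The part of the Saa1 probe that is shown here is the end of the reading frame, the stop codon in capitals, on the strand of the gene.
Saa1 probe, 56 of its 60 bases: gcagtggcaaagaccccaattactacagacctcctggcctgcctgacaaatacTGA
Saa4 was the 1 member beyond the rule downward. Its probe (53983662 to 53983721) read 39900 in MHs and 9050 in Sox9+EpCAM- hepatocytes, a log2 difference of -2.72. Only 2.92% of the 21877 genes had a lower value. Under the 5 alternatives that can change the value of a gene with 1 clear spot, the difference ran from -2.90 to -2.29, past the rule of size in each. Its difference was 1.77 ± 0.29 below that of Saa1, its neighbour among the probes.
Saa3 (53970389 to 53970448) read 994 in MHs and 2360 in Sox9+EpCAM- hepatocytes, a log2 difference of 0.66, which is 1.58-fold higher. It is the only one of the 4 genes with a higher value in Sox9+EpCAM- hepatocytes, and that sign held under every scaling tried, from 0.49 to 0.93. Its difference exceeded that of Saa1 by 1.62 ± 0.29 and that of Saa4 by 3.39 ± 0.29. Of the markers of macrophages and of adipocytes, cells that also make Saa3, 8 of 12 macrophage genes were at least 4-fold lower and 1 higher, and of 4 adipocyte genes with a difference 1 was at least 4-fold higher and 1 lower. Their part in the value of Saa3 was not tested.

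Lcn2 encodes lipocalin 2, which binds bacterial siderophores and so withholds iron from bacteria, and it is made by injured epithelia and hepatocytes and stored in the granules of neutrophils. Its probe (chromosome 2, 32240199 to 32240258, mm9) read 548 in MHs and 7360 in Sox9+EpCAM- hepatocytes. The log2 difference was 3.16, which is 8.97-fold higher in Sox9+EpCAM- hepatocytes, and 98.0% of the genes had a lower difference. Under the alternatives it lay between 2.99 and 3.43. It exceeded the difference of Saa3, the next highest member, by 2.5 ± 0.29 and that of Saa4 by 5.89 ± 0.29.
The promoter of Lcn2, shown because it is the 1 member beyond the rule upward, holds 1 match to the C/EBP motif, at -216 and in capitals.
Lcn2 (chr2:32387740-32387989, minus strand): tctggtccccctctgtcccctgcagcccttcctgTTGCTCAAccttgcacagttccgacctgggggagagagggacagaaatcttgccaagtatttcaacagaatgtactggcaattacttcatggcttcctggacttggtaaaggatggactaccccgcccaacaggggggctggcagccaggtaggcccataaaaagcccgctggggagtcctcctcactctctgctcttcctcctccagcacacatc
Neutrophils are another source of Lcn2. Of 10 neutrophil markers, S100a8, S100a9, Ngp, Ltf and Retnlg were not well above background on either array. Of the other 5, 4 were lower and 1 was higher (3 were higher after scaling to Gapdh, and 0 with normexp, quantile normalization or the authors' table), 0 were at least 4-fold higher, and Ly6g was 5.62-fold lower. The summed level of the 10, relative to the 75th percentile, went from 11.8 in MHs to 2.46 in the sorted cells. Ly6g, whose accession had no match in the RefSeq table, carried 95.3% and 81.4% of these sums, and the other 9 together read 0.55 in MHs and 0.46 in the sorted cells. The part of neutrophils in the value of Lcn2 was not tested. Duct cells are a further source, and the summed level of 8 cholangiocyte markers went from 2.37 to 49.0, with Spp1 122-fold and Epcam, the marker against which the cells were sorted, 13.3-fold higher. Spp1 carried 86.3% of the sum in the sorted cells, and the other 7 went from 2.03 to 6.71. Sox9 itself was not well above background in MHs and at least 1.45-fold higher in the sorted cells. Krt7 had a log2 difference of -0.23 and Krt19 one of 0.42, and Cftr read 69.6 in MHs and 52.1 in the sorted cells. The part of duct cells in the value of Lcn2 was not tested, and in a bulk sample more cells that make a transcript and more transcript per cell cannot be told apart. Slc22a17, which encodes a receptor for lipocalin 2, had a log2 difference of -0.46, and Lrp2, another receptor, was not well above background on either array.

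Hp and Hpx encode the plasma scavengers of free haemoglobin and of free heme. Hp (chromosome 8, 112099045 to 112099104, mm9) read 17400 in MHs and 40900 in Sox9+EpCAM- hepatocytes, a log2 difference of 0.65, which is 1.57-fold higher. The sign was the same under each of those 5 alternatives, from 0.48 to 1.12. Hpx (chromosome 7, 112740304 to 112740363) had intensities of 25500 and 32800, a log2 difference of -0.22, which is 1.16-fold lower. It is the 1 member whose sign depends on the scaling, with 0.27 after quantile normalization and 0.05 after scaling to Gapdh. The Gapdh scaling also raised the median of all genes by 0.27, and relative to that median Hpx was higher after quantile normalization only. The difference of Hp exceeded that of Hpx by 0.87 ± 0.29.
Several partners of these proteins moved beyond 4-fold. Cd163, the receptor that macrophages use to take up haptoglobin bound to haemoglobin, read 147 in MHs and was below a clear signal in Sox9+EpCAM- hepatocytes (not well above background), at least 12-fold lower, below the rule with normexp. Hmox1, which encodes the heme oxygenase that breaks down heme, rose 23.2-fold, from 1420 to 49400, and its other probe had a log2 difference of 6.46. Hba-a1, a haemoglobin chain, fell 15.5-fold. The probe named Hbb-b1, which the RefSeq table lists under another symbol, Hbb-bt, was not well above background on either array. The level of the other haemoglobin chain as a whole is therefore not settled by it. Slc40a1, the iron exporter ferroportin, was 4.11-fold lower, at the edge of the rule and below it with normexp, quantile and Gapdh settings. Lrp1, the receptor for hemopexin bound to heme, had 3 probes whose log2 differences ran from -2.37 to 0.38, so it has no settled direction.

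Orm1 and Orm2 encode orosomucoids, also called alpha-1-acid glycoproteins, lipocalins of the plasma that carry basic drugs. Orm1 (chromosome 4, 63006483 to 63007090, mm9, a span longer than the probe) read 44800 in MHs and 25800 in Sox9+EpCAM- hepatocytes. The log2 difference was -1.38, which is 2.60-fold lower in Sox9+EpCAM- hepatocytes. Orm2 (63024979 to 63025038) had intensities of 39600 and 20500, a log2 difference of -1.53, which is 2.89-fold lower. The probes, which are shown because the 2 genes are close paralogs, lie within 18.6 kb and read as follows on the strand of the genes.
Orm1 probe: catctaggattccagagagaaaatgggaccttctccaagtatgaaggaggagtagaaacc
Orm2 probe: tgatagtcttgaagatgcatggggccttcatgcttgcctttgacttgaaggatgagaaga
Their differences lay 0.15 ± 0.29 apart, and Orm3, a paralog outside the 10 genes, gave -1.45, close to both. Transcripts of the paralogs could bind each other's probes, so the 3 values may not be independent. The promoters of Orm2 and Orm3 are 85.5% identical, and Orm2 has matches to the C/EBP motif at -120 and -108. The promoter table has no entry for Orm1 and Hp.

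Apcs encodes serum amyloid P component, a pentraxin that binds amyloid fibrils and chromatin and is a major acute phase protein of the mouse. Its probe (chromosome 1, 174824959 to 174825018, mm9) read 16100 in MHs and 7500 in Sox9+EpCAM- hepatocytes, a log2 difference of -1.69, which is 3.22-fold lower. Under the alternatives it lay between -1.86 and -1.31. The values of Orm2 and Apcs were 0.15 ± 0.29 apart. Crp, the other short pentraxin, had intensities of 294 and 160 and a log2 difference of -1.46. Fcgr2b and Fcgr3, which encode Fc receptors that also bind pentraxins, fell 23.0-fold and 14.3-fold. Fcgr1, another Fc receptor gene of the same list, was only 1.67-fold lower, and Fcgr2b is also 1 of the endothelial markers used below.
Of the 8 members in the promoter table, Apcs is the 1 without a match to the C/EBP motif. It is also the 1 with a match to the STAT motif TTCNNNGAA (7.02% of all promoters) and to the type II IL-6 element CTGGGAA (9.1%), the former at -244 and the latter at -129 and -52, with no overlap. The NF-kB consensus, found in 7.25% of all promoters, was in 0 of the 8 windows. These counts say only which letters the windows hold.

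Albumin, the main plasma protein of the hepatocyte and a negative acute phase protein, gives a scale that does not depend on the percentile of the array. The intensity of Alb was 207000 in MHs and 170000 in Sox9+EpCAM- hepatocytes, a log2 difference of -0.87. Relative to Alb, 4 members were higher and 6 lower. Most of all genes with a difference were also higher relative to Alb, since it lay below their median (-0.12). For Saa1, just below Alb, 81.0% of these genes had a higher difference. Saa1 (-0.09) and Saa2 (-0.15) were nearest to Alb, while Lcn2 was higher by 4.03, Saa3 by 1.53, Hp by 1.52 and Hpx by 0.65 on the log2 scale. Orm1, at -0.51, Orm2, at -0.67, Apcs, at -0.82, and Saa4, at -1.86, were lower than Alb. The 10 hepatocyte markers were all lower in Sox9+EpCAM- hepatocytes at the 75th percentile, with a median of -1.02 beside -0.98 for the members, although 3 were higher after quantile normalization and 2 after scaling to Gapdh. Cyp2e1 fell 44.2-fold and Tat 5.51-fold, the latter within 4-fold after quantile normalization, whereas Apob was at -0.22. The part of a lower share of hepatocyte RNA in the lower members was not tested, and fewer hepatocytes and less RNA per hepatocyte cannot be told apart in these bulk samples.

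**Figure D3:**
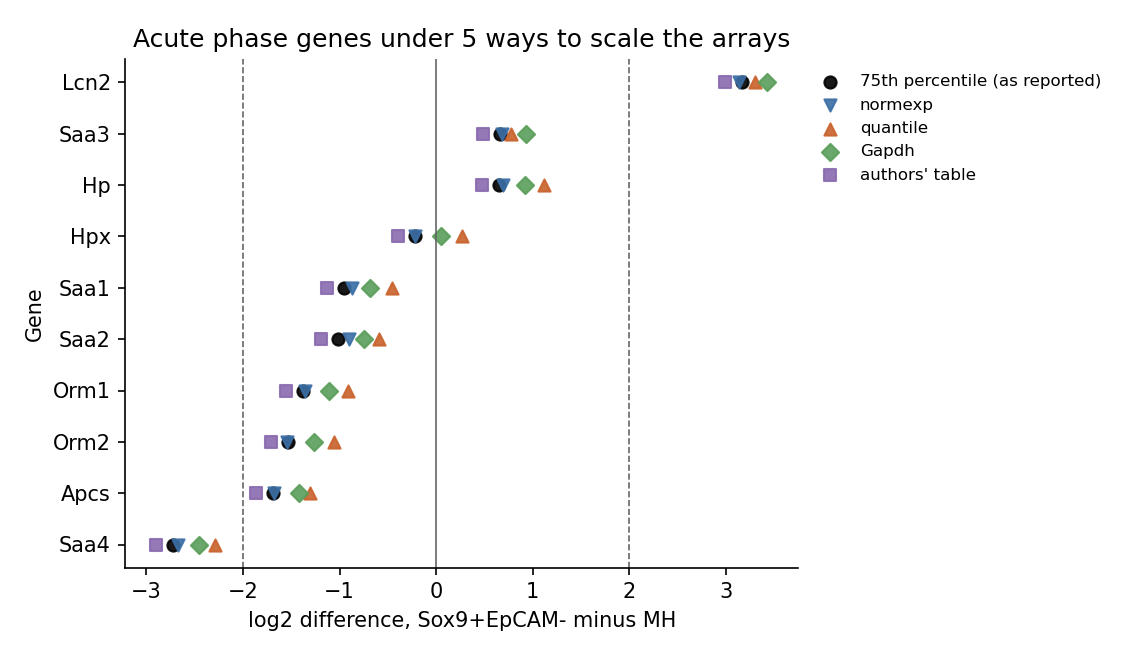
Log2 difference of each acute phase gene under 5 ways to scale the 2 arrays, with dashed lines at the rule of size of 2 on the log2 scale. Lcn2 and Saa4 stay outside the lines under all 5, Hpx changes side of 0 after quantile normalization and scaling to Gapdh, and the other genes keep their side.

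The other genes of the response, from lists chosen with earlier results of these data known, were counted by the same rule of size. Of 32 other positive acute phase proteins 30 had a difference, 9 higher and 21 lower, with a median of -0.77. After quantile normalization these were 13 higher and 17 lower with a median of -0.19, and they were 6 higher and 24 lower with a median of -0.95 in the authors' table. At least 4-fold higher were Cd14, a receptor for lipopolysaccharide, 11.6-fold, and Lrg1, a leucine-rich glycoprotein, 4.05-fold, which is at the edge of the rule and drops below it with 2 other scalings. At least 4-fold lower were Mbl2, a lectin that starts complement, 25.6-fold, and Hamp2, a hepcidin paralog, 8.28-fold. Their paralogs Mbl1 (-1.20) and Hamp (-0.81) lay within 4-fold. The fibrinogen chains Fga (-0.58), Fgb (-0.58) and Fgg (-0.35) and complement C3 (-0.74) lay within 2-fold, and so did Serpina3n (0.12), ceruloplasmin Cp (0.27) and the metallothionein gene Mt2 (0.00). The 2 probes of Mt1 gave 0.45 and 1.52.
All 15 negative acute phase proteins had a difference, 1 higher and 14 lower, with a median of -0.87. After Gapdh scaling 3 of them were higher, and after quantile normalization 4 were higher, with a median of -0.26. Serpina7, which encodes thyroxine-binding globulin, rose 13.2-fold, from 367 to 7240. Igfals, the subunit that stabilizes circulating insulin-like growth factor, fell 16.8-fold and Serpina6, which encodes corticosteroid-binding globulin, 9.56-fold. Fetub, which encodes fetuin B, was 4.06-fold lower, below the rule with normexp, quantile and Gapdh settings.

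**Figure D4:**
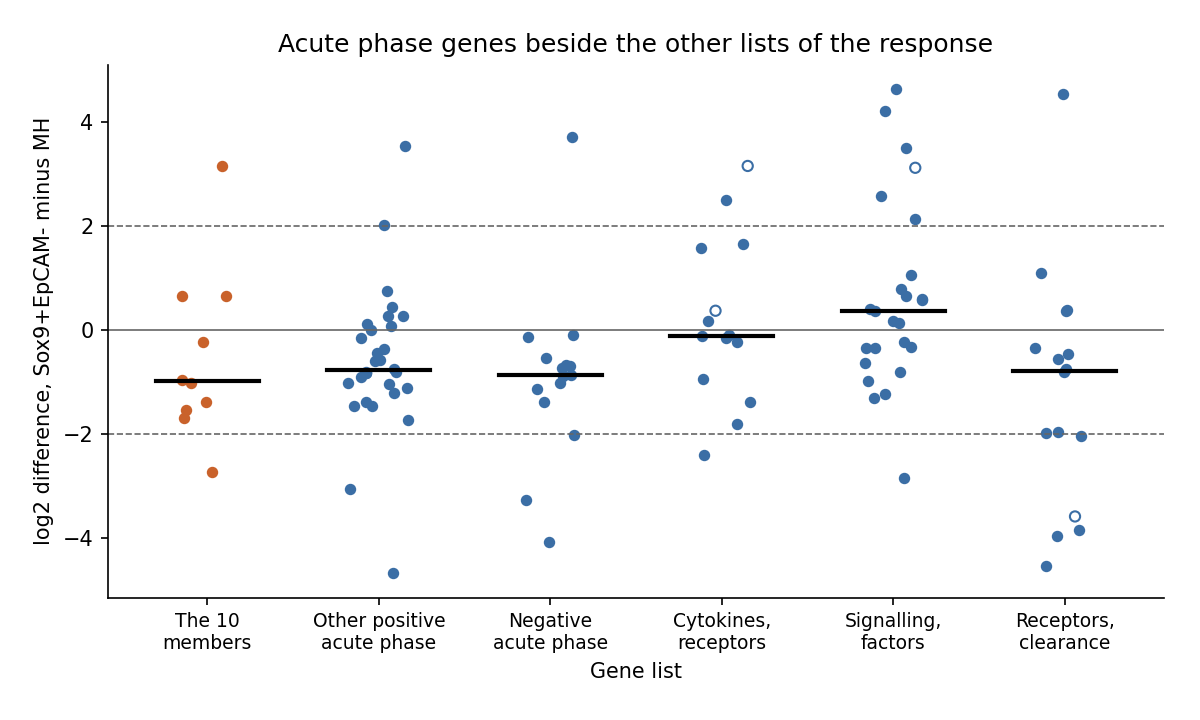
Log2 difference of each gene of 6 lists, 1 point per gene, with the median of each list as a bar, dashed lines at the rule of size of 2 on the log2 scale and open circles for genes that have only a bound. The 10 members (median -0.98) and the other positive (-0.77) and negative (-0.87) acute phase proteins have medians below 0, and that of the signalling genes (0.37) lies above 0.

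Upstream of the members, the list of signalling and transcription factors had 25 genes with a difference, 15 higher and 10 lower, and a median of 0.37. Beyond 4-fold were Nfkbie (24.9-fold), Nfkbiz (11.4-fold) and Nfkb2 (6.01-fold) of the NF-kB system, Socs3 (18.5-fold), which encodes an inhibitor of gp130 signalling, and Cebpd (at least 8.72-fold), which encodes a C/EBP factor. The sixth gene was Rela, 4.39-fold higher. Ikbkb, which encodes a kinase that activates NF-kB, fell 7.17-fold. Cebpb had a log2 difference of -0.35 and Cebpa one of -1.29, while the 2 probes of Stat3 gave -0.24 and 1.05. With normexp background correction, 4 genes in place of 6 were at least 4-fold higher, without Cebpd and Rela, and Rela also missed the rule with the authors' table.
Of 19 cytokines and receptors 14 had a difference, 6 higher and 8 lower, with a median of -0.11. The balance turned to 8 higher and 6 lower (median 0.06) after quantile normalization and to 10 higher and 4 lower (median 0.16) after scaling to Gapdh. Il6, Il1a and Tnf were not well above background on either array, and Il1b had a log2 difference of 0.18. Osmr, the receptor subunit for oncostatin M, was at least 8.93-fold higher, a call lost with normexp, and Clcf1, a cytokine of the interleukin 6 family, 5.70-fold. Lifr, the receptor for leukaemia inhibitory factor, fell 5.27-fold by its brightest probe, but its 3 probes ran from -2.40 to -0.15. The log2 difference was -0.95 for Il6ra and -0.12 for Il6st, which encodes gp130. Of 21 receptors, partners and clearance genes of the members 16 had a difference, 4 higher and 12 lower, with a median of -0.78. Of these, 1 was at least 4-fold higher and 5 at least 4-fold lower, all named above.
Genes of other liver cells moved between the arrays as well. The summed level of 12 macrophage markers went from 36.2 to 14.6, with Clec4f 86.1-fold lower and Cd68 14.4-fold higher, and 8 of the 12 were at least 4-fold lower. Without Csf1r, which carried 84.8% of the sum in the sorted cells, it went from 19.7 to 2.21. That of 12 stellate cell and fibroblast markers went from 12.8 to 54.5, and 6 of 11 genes were at least 4-fold higher. The largest were Eln (at least 134-fold), Mgp (at least 129-fold), Col3a1 (85.1-fold), Col1a1 (21.3-fold) and Col1a2 (15.4-fold). Dcn had the highest intensity of this list in MHs, 8080, beside 15000 in the sorted cells, a log2 difference of 0.31. Des (0.09) and Acta2 (0.42) also lay within 2-fold, and Pdgfrb was not well above background on either array. Lrat, at least 7.70-fold, and Rgs5, 4.75-fold, were lower, both within 4-fold with normexp and Rgs5 also after scaling to Gapdh. The summed level of 7 endothelial markers went from 9.0 to 2.14. That of 5 adipocyte markers went from 4.57 to 14.3, but Cidec, 64.5-fold higher, carried 89.7% of it in the sorted cells, and the other 4 went from 4.37 to 1.46, with Fabp4 4.60-fold lower (within 4-fold after scaling to Gapdh) and Adipoq at -1.10. For hepatocytes the sum went from 1242 to 603. The part of these cells in the differences of the members was not tested.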

How the data were processed

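Total RNA of 2 samples, 1 per group as the labels give them, carried Cy3 label and went onto 1 Agilent array of the mouse design each, both on 1 slide. The authors deposited the scanner output of Feature Extraction 10.7.3.1 (per the submitters' processing notes): the spot intensity after background subtraction and removal of trends across the slide, its error, the mean and local background intensity and flags, with no normalization between arrays. A second deposited table holds ratio values, each the processed intensity divided by the median of its array (SD of the log2 factor 0.0018). Probe coordinates are those of the array design (mm9).
Clear signal over background was flagged for 27523 of 43020 non-control spots with MHs and for 32158 with the sorted cells. The log2 intensity minus that of the array's 75th percentile was used. Spots marked as outliers were left out, the spots of a probe were averaged, and the probe with the highest mean over both arrays stood for a gene, which gave 39390 probes and 30153 genes, of which 21877 had a difference. Where a probe lacked clear signal on 1 array, a bound took its place there, namely its own signal or, if higher, the array's lowest clear signal (27.8 and 18.4), and a bound under 1-fold counted as no difference. No test was run, and with 1 spot per member the typical SD among repeated spots of 1 probe (median 0.08 on the log2 scale on each array) is the nearest measure of technical spread.
The members, the lists of other genes and the rule for naming them were chosen with earlier results of these data known. Named were the 10 members, Alb, up to 5 genes each way per list beyond 4-fold and marker genes of other cell types. List genes within 4-fold, and Rela, were named after their values were seen.
A stretch of 20 bases is shared between probes of different genes for 7.19% of probes and for 0 members. The accessions of all 10 members gave the same symbol in the RefSeq table (GRCm38.p6), and 8 of 10 had a promoter there. The sequences of the other probes were left out.
Alternatives tried were scaling to Gapdh or to the median of probes with clear signal on both arrays, quantile normalization, normexp with an offset of 50 (R 4.3.3, limma 3.58.1), the authors' table, outlier spots kept, the median of all probes or the probe with the largest difference, no bound, a filter to genes with clear signal on both arrays, and limits of 2-fold and 10-fold. A value that changed by over 1.5-fold was called moved. The steps, run in Python 3.11.15 (numpy 2.4.6, pandas 2.3.3), were tested on simulated data.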

Additional observations from a re-analysis of the deposited data

How the results depend on the processing

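Of 10 settings, 5 could not change the members, each of which has 1 clear spot without an outlier flag. Under the other 5, which gave 50 values, 0 moved by over 1.5-fold and 0 changed the direction of a difference beyond the rule of size. Hpx, within 2-fold, changed sign in 2. Lcn2 stayed beyond 4-fold upward and Saa4 downward under each of them. With a limit of 10-fold, 0 members were higher and 0 lower, and with a limit of 2-fold, 5 members were lower, between 3 (quantile normalization) and 6 (authors' table) under other settings. Scaling to Gapdh raised the median difference of all genes by 0.27, and the authors' table lowered it by 0.19 (a shift of -0.19). The median of the members ran from -1.16 to -0.52. Over all genes, 1309 were at least 4-fold higher and 1304 lower, against 1650 and 1006 with Gapdh scaling, 1130 and 1563 with the authors' table, and 612 and 660 with normexp, whose offset raises low signals. A filter to genes with clear signal on both arrays left 758 higher and 914 lower, since fewer genes were counted, and plain differences without the bound gave 1949 and 1416. A limit of 2-fold gave 3319 higher and 3918 lower, and one of 10-fold gave 363 and 344.
No paired analysis was possible because only 1 array exists per group, and for the same reason the slide as a block and the omission of a replicate were not run. Signal over background did not limit the members, since all 10 were well above it on both arrays, but Il6, Il1a, Tnf and 5 neutrophil markers were not.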
